A study of Mus musculus with 12 samples.

Results

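The collagen chain genes of cultured mouse cardiac fibroblasts were examined as a family. Every protein-coding gene whose symbol had the form Col, a type number, the letter a and a chain number was taken, which gave 44 genes of the 35275 listed, 22026 of them protein coding. Of the 44, 36 passed the filter on low counts and were among the 15150 genes tested, and 8 did not. RNA was sequenced from 12 libraries in 4 conditions of 3 libraries each. The cells came from hearts of 12-week-old C57BL/6 mice with floxed Smad7, were used at passage 2 and were infected for 48 h at a multiplicity of 100 with adenovirus carrying GFP (control cells) or Cre recombinase (Smad7-KO cells). Both kinds of cells were then left unstimulated or given TGF-β1 at 10 ng/ml. By this description all 4 groups shared the floxed alleles and an adenoviral infection, although the library titles call the control cells wild type. The stimulation time is stated as 2 h in a sample field and as 4 h in a protocol. GFP in the control virus is given by the labels, whereas the paper describes an empty control virus. The Smad7-KO cells were thus cultures in which a virus delivered Cre to whichever cells it infected, and the labels do not say which libraries shared a culture or an animal, so the p-values measure the spread between these libraries, which may be technical.

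Collagens are secreted proteins in which 3 chains wind into a triple helix, and they make up most of the fibrous matrix of the heart. Fibroblasts are the main source of the fibrillar types I and III, whose deposition is raised by TGF-β acting through receptor-activated Smads, and Smad7 is an inhibitory Smad that TGF-β itself induces. The family is sorted here into fibrillar chains (11 genes), type IV basement membrane chains (6), fibril-associated chains with an interrupted helix, called FACIT (9), beaded-filament chains of type VI (6), short-chain network collagens (3), multiplexins of the basement membrane zone (2), membrane-anchored chains (4) and a rest of 3 genes, types VII, XXVI and XXVIII.

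Library totals lay between 19056916 and 25371321 counts. Levels are given as FPKM, counts divided by the listed gene length and the library total in the usual unit, scaled with edgeR's TMM factors. Smad7, the targeted gene, had a mean FPKM of 17.4 in unstimulated control, 34.1 in TGF-β1–stimulated control, 6.86 in unstimulated Smad7-KO cells and 17.9 in Smad7-KO cells with TGF-β1, lower with Cre within each stimulation state in every library. Fibroblast genes such as Dcn and Pdgfra were present in all libraries. Of 12 fibroblast markers, 6 were lower and 2 higher in Smad7-KO cells without stimulation, beside 13.7% and 12.1% of all tested genes. With TGF-β1, 3 were lower and 2 higher, beside 7.23% and 5.72%. Dcn was among the higher ones in both states. The summed FPKM of the 12 was 3280 to 6860 in unstimulated control and 2710 to 2770 in unstimulated Smad7-KO libraries. With TGF-β1 it was 3480 to 4460 in control and 2310 to 2860 in Smad7-KO libraries. The summed FPKM of 13 macrophage markers was 3.13 to 7.17 times that of 12 fibroblast markers in each of the 12 libraries. Such sums are set mostly by the most abundant genes of a list, so this ratio does not give the proportion of cells. Both sums were highest in unstimulated control library 2, at 21500 and 6860 FPKM. Summed endothelial markers were 184 to 202 FPKM in unstimulated control and 195 to 212 in TGF-β1–stimulated control libraries, against 55.4 to 60.0 and 64.2 to 66.2 in the matching Smad7-KO libraries. In a bulk sample, fewer cells of a type and less RNA per cell cannot be told apart, and the part of these marker differences in the collagen results was not tested. Unstimulated control library 2 stood apart from the other 11. Its collagen genes took 1.06% of counts, against 1.49% to 2.12% elsewhere, and its collagens lay a median of 0.53 log2 units below their own mean over all libraries.

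The most abundant collagen was Col3a1, the chain of the homotrimeric fibrillar type III, with 29.8% of the summed collagen FPKM. With Col5a2, Col1a2 and Col1a1 it made up 65.7%. In FPKM, Col3a1 measured 984, 698 and 1085 in unstimulated control libraries, 829, 788 and 789.9 in control libraries with TGF-β1, 956, 857 and 873 in unstimulated Smad7-KO libraries and 684, 696 and 712 in Smad7-KO libraries with TGF-β1. Col1a1, a chain of type I collagen, measured 321, 173 and 373 (unstimulated control), 396, 344 and 369.7 (control with TGF-β1), 295, 280.4 and 282 (unstimulated Smad7-KO) and 322, 303 and 287 (Smad7-KO with TGF-β1). Its partner Col1a2 measured 311, 237 and 356 in control libraries without and 362, 324 and 339 with TGF-β1, and 334, 326 and 319 in Smad7-KO libraries without and 323, 327 and 328 with TGF-β1. The lowest values of Col1a1 and Col1a2 were in unstimulated control library 2, and for all 3 genes the unstimulated control libraries overlapped with each other group.

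Type V chains join type I in mixed fibrils and help to start them. Col5a2 measured FPKM values of 401, 288 and 479 in unstimulated control libraries, 500.0, 441 and 451 in control libraries with TGF-β1, 336, 275 and 295 in unstimulated Smad7-KO libraries and 284, 307 and 307 in Smad7-KO libraries with TGF-β1. The 6 Smad7-KO libraries all lay below the 3 TGF-β1–stimulated control libraries, while the unstimulated groups overlapped. Col5a1 measured 57.0, 33.4 and 71.2 (unstimulated control), 79.3, 65.2 and 71.3 (control with TGF-β1), 60.8, 52.1 and 53.3 (unstimulated Smad7-KO) and 61.5, 65.1 and 63.9 (Smad7-KO with TGF-β1) FPKM, with the lowest value again in unstimulated control library 2. The ratio of Col5a2 to Col5a1 FPKM was 7.47 ± 1.03 (SD, n = 3) in unstimulated control, 6.46 ± 0.26 in TGF-β1–stimulated control, 5.45 ± 0.139 in unstimulated Smad7-KO libraries and 4.71 ± 0.0951 in Smad7-KO libraries with TGF-β1. It was lower in each Smad7-KO library than in every control library.

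Type IV chains form the sheet of basement membranes. Col4a1 measured 172, 93.5 and 225 in control libraries without and 219, 165 and 194 with TGF-β1, and 204, 183 and 200.5 in Smad7-KO libraries without and 182, 191 and 177 with TGF-β1 FPKM. Col4a2, its head-to-head neighbour and partner in the common type IV network, measured 153, 72.0 and 195 in unstimulated control libraries, 182, 135 and 162 in control libraries with TGF-β1, 169.9, 158 and 166 in unstimulated Smad7-KO libraries and 146, 158 and 150.3 in Smad7-KO libraries with TGF-β1 FPKM. Apart from the low value of unstimulated control library 2, the libraries of all groups covered a like range. The 2 genes share 22 bases on chromosome 8. The sequencing kit did not mark strand, so strand cannot assign reads there to either gene, and how the counting treated them is not stated. Their ratio, Col4a2 to Col4a1 in FPKM, stayed between 0.771 and 0.888 in all 12 libraries. Col4a5 and Col4a6, 1308 bases apart and head to head on the X chromosome, averaged 56.2 and 13.9 FPKM. Col4a3 and Col4a4, 71 bases apart on chromosome 1, are the chains that join Col4a5 in the basement membrane of the kidney glomerulus, and both averaged below 1 FPKM here.

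Type VI collagen builds beaded microfilaments from different chains. Col6a1 measured 149, 87.8 and 161 (unstimulated control), 139, 127 and 138 (control with TGF-β1), 139.7, 133 and 136 (unstimulated Smad7-KO) and 123, 119.5 and 122 (Smad7-KO with TGF-β1) FPKM. Col6a2 measured 61.1, 36.7 and 67.3 in control libraries without and 55.5, 48.9 and 56.1 with TGF-β1, and 60.8, 56.2 and 58.8 in Smad7-KO libraries without and 50.0, 51.3 and 50.1 with TGF-β1 FPKM. The ratio of Col6a2 to Col6a1 was 0.387 to 0.435 in all libraries, a narrow range that held in unstimulated control library 2 as well. Col6a3, which encodes the largest chain of the common trimer, was far less abundant, with FPKM values of 1.31, 0.695 and 2.76 in unstimulated control libraries, 1.83, 1.20 and 1.56 in control libraries with TGF-β1, 0.932, 1.13 and 1.41 in unstimulated Smad7-KO libraries and 0.975, 1.19 and 0.934 in Smad7-KO libraries with TGF-β1. Col6a1 exceeded it 58.4-fold to 150-fold on the same per-length scale. Col6a4 averaged 0.0513 FPKM, and Col6a5 and Col6a6 did not pass the filter.

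Among the remaining classes, Col8a1, a short-chain collagen of vessel walls, measured 145, 144 and 201 (unstimulated control), 203, 168 and 179 (control with TGF-β1), 169.7, 156 and 169 (unstimulated Smad7-KO) and 168, 177 and 161 (Smad7-KO with TGF-β1) FPKM. Col12a1, a FACIT found on fibrils of load-bearing tissue, measured 25.2, 13.7 and 46.6 in control libraries without and 54.5, 30.8 and 40.4 with TGF-β1, and 49.7, 38.5 and 43.1 in Smad7-KO libraries without and 51.4, 61.1 and 40.8 with TGF-β1 FPKM. Col18a1, the multiplexin that releases endostatin, measured 12.3, 6.62 and 14.9 in unstimulated control libraries, 13.0, 10.2 and 12.8 in control libraries with TGF-β1, 11.9, 11.7 and 10.7 in unstimulated Smad7-KO libraries and 10.3, 11.5 and 11.2 in Smad7-KO libraries with TGF-β1 FPKM. The groups of these 3 genes overlapped in each of the comparisons below. Antisense neighbour Slc19a1 overlaps Col18a1 and carried 13.1% as many reads. By the mean over 12 libraries, 8 of the 44 genes had 100 FPKM or more, 8 had 10 to 100, 7 had 1 to 10, 11 had 0.1 to 1 and 10 had less than 0.1. All genes with a mean of 0.1 FPKM or more were tested, as were Col22a1 and Col6a4 below it. The 8 genes that were not tested, Col9a1, Col9a2, Col19a1, Col24a1, Col25a1, Col26a1, Col6a5 and Col6a6, had at most 10 counts in any library, and a count of 0 there allows 3 counts, or up to 0.0616 FPKM, counting error only. Among them were the cartilage chains Col9a1 and Col9a2.

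**Figure D1:**
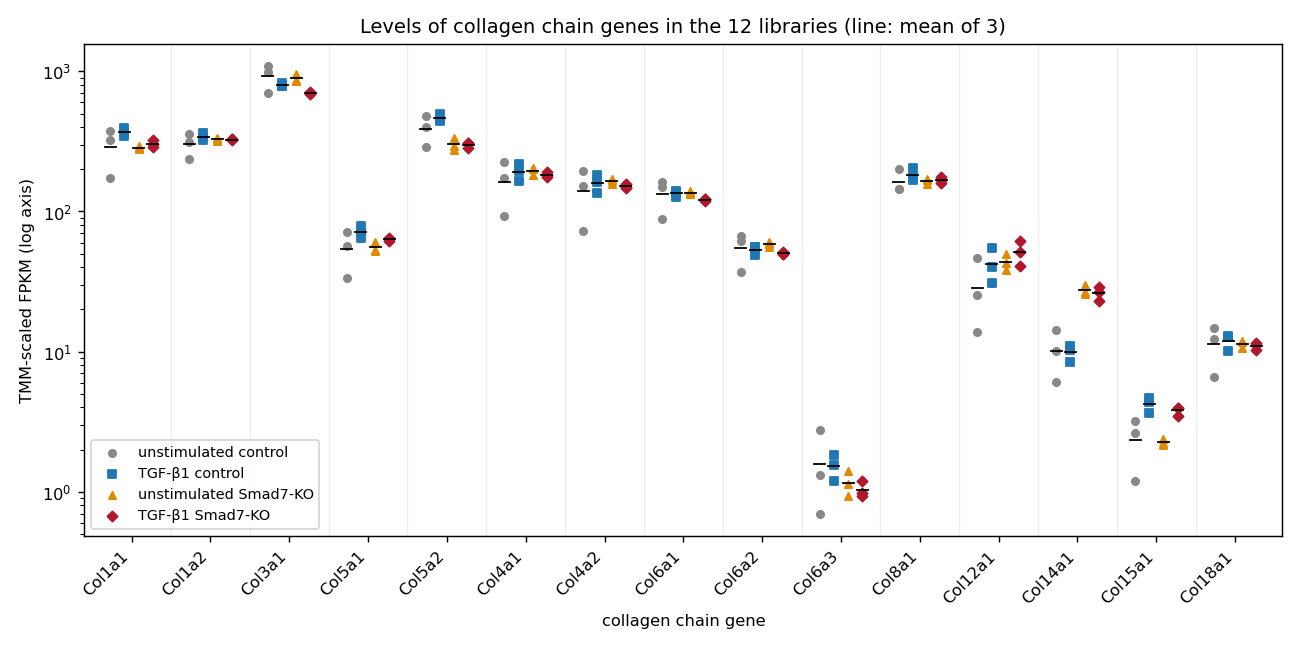
TMM-scaled FPKM on a log axis of 15 collagen chain genes in each of the 12 libraries, with a line at each group's mean of 3 libraries. Most chains kept a like level in all 4 groups, unstimulated control library 2 gave the low grey point of most genes, and Col14a1 lay higher in all 6 Smad7-KO libraries.

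The comparison of TGF-β1–stimulated with unstimulated control cells asked how the collagen genes responded to the cytokine soon after it was added. By the quasi-likelihood test of edgeR, adjusted over all 15150 genes (Benjamini-Hochberg), 3 of 36 collagen genes were higher and 0 were lower at an adjusted p of 0.05 or less. That is 8.33% of them, against 8.37% of all tested genes (5.04% higher and 3.33% lower), and so close to the background. The groups of 6 did not overlap, all higher, which is 16.7% beside 10.9% of all genes higher without overlap, and 0 were lower, beside 9% (19.8% in either direction). At an unadjusted p under 0.05, 6 were higher and 0 lower, beside 3073 of all 15150 genes in either direction. DESeq2 called 4 higher and 0 lower, 11.1% beside 10.2% of all genes (5.65% higher and 4.51% lower). The collagen median was a log2 fold change of 0.10, beside -0.03 over all tested genes, and it was -0.05 without unstimulated control library 2 and 0.39 without library 3. Neither Col1a1 (0.36 ± 0.216 SE, 95% interval -0.12 to 0.83) nor Col3a1 (-0.20 ± 0.148, -0.53 to 0.12) passed the test. Of 17 tested genes listed as TGF-β targets, 13 rose, beside the 5.04% of all genes. They were listed as known targets, with earlier results of these data known, so their rise was largely given in advance.

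Col8a2, the partner chain of Col8a1 in type VIII collagen, rose most. Its FPKM was 0.290, 0.237 and 0.331 (unstimulated control), 1.32, 0.892 and 1.04 (control with TGF-β1), 0.0686, 0.0694 and 0.0501 (unstimulated Smad7-KO) and 0.460, 0.877 and 0.610 (Smad7-KO with TGF-β1). Both TGF-β1–stimulated groups lay wholly above their unstimulated counterparts. The counts behind these values were 18 to 34, 93 to 141, 5 to 7 and 50 to 84 per library. In control cells Col8a2 rose 3.75-fold (log2 fold change 1.91 ± 0.272 SE, edgeR adjusted p = 0.000873). Col8a1, 170.1 FPKM on average against 0.520 for Col8a2, had a log2 fold change of 0.17 ± 0.137 (adjusted p = 0.533).

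Col27a1, a fibrillar chain best known from cartilage, was at FPKM values of 0.872, 0.428 and 0.875 in unstimulated control and 2.00, 1.44 and 1.55 in TGF-β1–stimulated control libraries, without overlap. It rose by a log2 fold change of 1.19 ± 0.326 (edgeR adjusted p = 0.0446), a call that 9 of the 12 fits without a single library lost, at adjusted p values of 0.0505 to 0.166 and log2 fold changes of 0.93 to 1.34. The fits that kept it left out unstimulated control library 3 or the first library of either Smad7-KO group. Col16a1, a FACIT of fibroblast and smooth muscle matrix, was at 36.7, 33.9 and 36.5 FPKM in unstimulated and 47.1, 47.0 and 47.4 in TGF-β1–stimulated control libraries, with narrow spread in both. Its log2 fold change of 0.40 ± 0.0886 (adjusted p = 0.0141) fell short without TGF-β1 control library 1 or 3 (adjusted p = 0.0521 and 0.0607). Col15a1, a multiplexin of vessel and muscle basement membranes, measured 2.62, 1.19 and 3.20 in control libraries without and 4.38, 3.62 and 4.68 with TGF-β1, and 2.23, 2.37 and 2.15 in Smad7-KO libraries without and 3.97, 3.46 and 3.98 with TGF-β1 FPKM. The TGF-β1–stimulated libraries lay above the unstimulated ones in both genotypes, with log2 fold changes of 0.85 ± 0.265 in control (adjusted p = 0.0774) and 0.76 ± 0.265 in Smad7-KO cells (adjusted p = 0.109), neither past the threshold with all libraries. Without unstimulated control library 2 or 3 both passed it, at adjusted p values of 0.0272 and 0.00917 in control and 0.00102 and 0.0353 in Smad7-KO cells. Leaving out TGF-β1 control library 1 or 3 turned the count of 3 genes into 1, 2.78% beside 5.31% of all genes in either fit. Leaving out unstimulated control library 3 turned the count into 9, all higher, which is 25% beside 22.3% of all genes (11.6% higher).

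In Smad7-KO cells, TGF-β1 left 1 collagen gene higher and 0 lower, 2.78% of those tested beside 10.2% of all genes (5.33% higher and 4.9% lower). At an unadjusted p under 0.05, 4 were higher and 2 lower, beside 3064 of all 15150 genes in either direction. DESeq2 called 4 higher and 1 lower, 13.9% beside 11.8% of all genes (6.24% higher and 5.57% lower). The gene was again Col8a2, which rose 10.2-fold (log2 fold change 3.35 ± 0.334 SE, edgeR adjusted p = 5.67e-05) from counts of 5 to 7 per library. The collagen median was -0.03, beside -0.01 over all genes. Col3a1 had a log2 fold change of -0.36 ± 0.148 (adjusted p = 0.185), its 3 stimulated libraries all below the 3 unstimulated ones. Col5a3, a further type V chain, had -0.63 ± 0.19 (adjusted p = 0.0577), also without overlap. The groups of 12 collagen genes did not overlap, 5 higher and 7 lower, which is 33.3% beside 39% of all genes (19% higher and 19.9% lower). The count of 1 became 6 without unstimulated control library 2 and 3 without library 3, neither of them a library of this comparison, beside 16.3% and 13.3% of all genes in these fits. With the Smad7-KO libraries alone, edgeR called 5 higher and 5 lower and DESeq2 5 higher and 6 lower, which is 29.4% and 30.6% of the collagens, beside 26.3% and 21.8% of all genes.

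**Figure D2:**
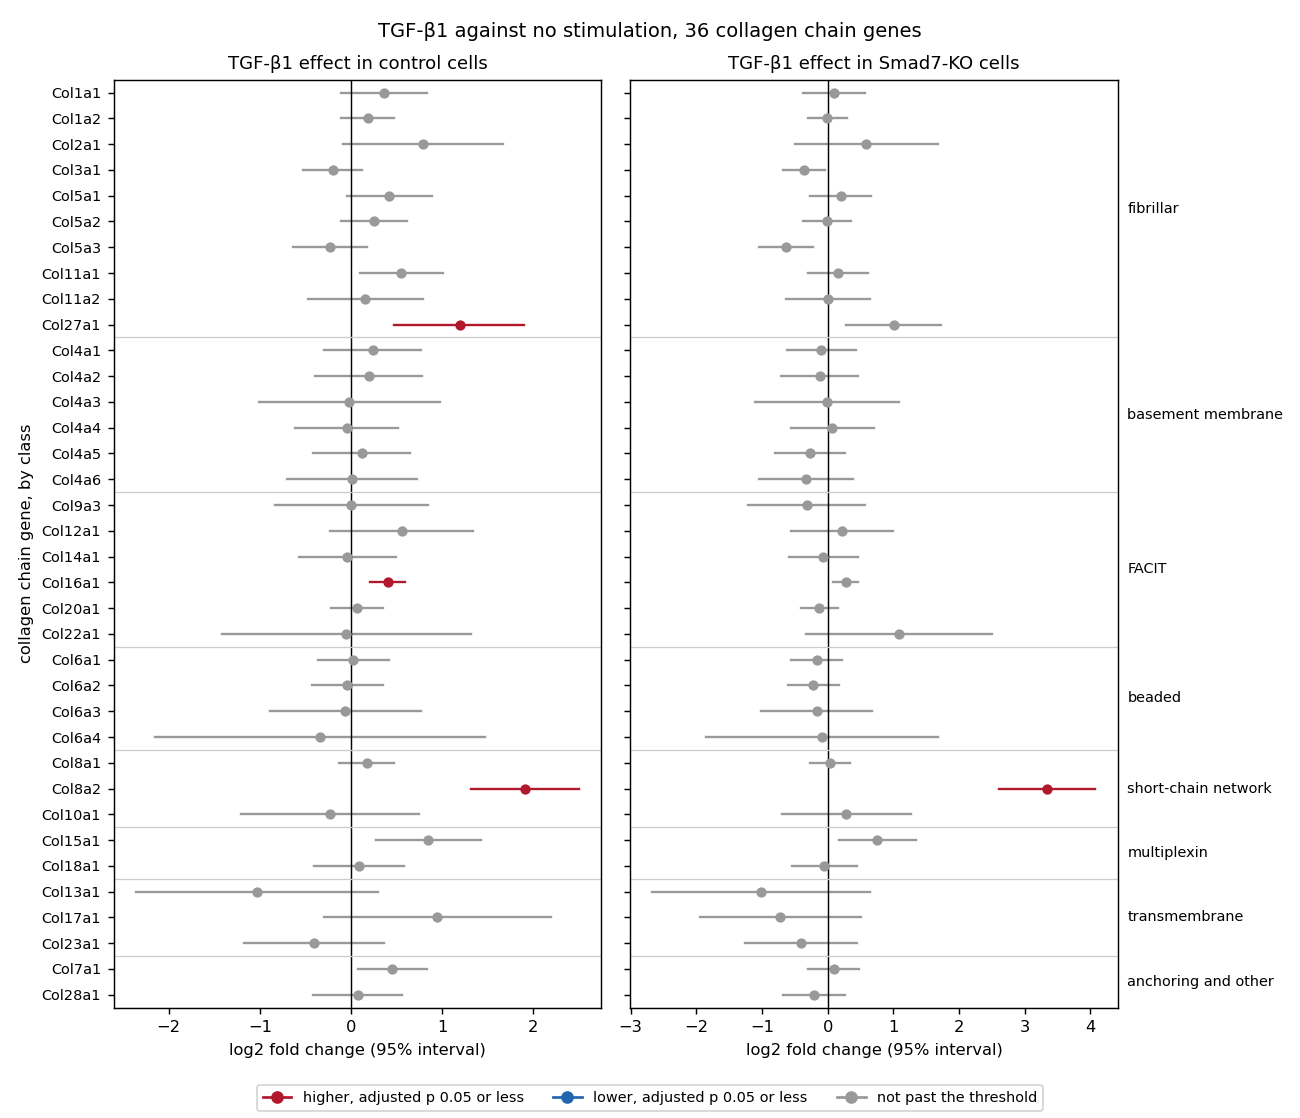
Log2 fold change with its 95% interval after TGF-β1 in control cells (left) and Smad7-KO cells (right) for the 36 tested collagen genes, by class, from edgeR. Red marks genes higher at an adjusted p of 0.05 or less, 3 in control and 1 in Smad7-KO cells, with Col8a2 farthest to the right in both.

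The ratio of Col3a1 to Col1a1 FPKM, a usual measure of fibrillar composition, was 3.34 ± 0.611 (SD, n = 3) in unstimulated control, 2.17 ± 0.103 in TGF-β1–stimulated control, 3.13 ± 0.0959 in unstimulated Smad7-KO libraries and 2.30 ± 0.178 in Smad7-KO libraries with TGF-β1. Every stimulated library (2.09 to 2.48) lay below every unstimulated library (2.91 to 4.04). The ratio was chosen with these values in view and is given as a description, without a test.

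The comparison of Smad7-KO with control cells asked which collagen genes differed between cells given Cre and cells given the control virus. Smad7 loss is used below as a name for this comparison. Effects of Cre itself or of the cultures cannot be told apart from it in this design. Smad7 RNA was lower and not absent, at a mean FPKM of 17.9 against 34.1 in control cells with TGF-β1. Without stimulation, 2 of 36 were higher and 5 lower, 19.4% of those tested beside 25.8% of all genes (12.1% higher and 13.7% lower). With TGF-β1, 2 were higher and 7 lower, 25% beside 13% of all genes (5.72% higher and 7.23% lower). The collagen medians were log2 fold changes of -0.05 and -0.19, beside -0.02 and -0.02 over all genes. The same 2 genes, Col14a1 and Col28a1, were higher in both states, and Col2a1, Col4a4, Col7a1 and Col16a1 were lower in both. Col8a2 was called lower without stimulation, and Col5a2, Col5a3 and Col11a1 with TGF-β1. The chains of types I and III, Col5a1, Col4a1, Col4a2, Col6a1, Col6a2 and Col8a1 passed the test in neither. Without unstimulated control library 3, the count without stimulation became 13, with 7 higher, which is 36.1% beside 51.5% of all genes in that fit. The median turned to 0.14. Without library 2 the median was -0.23 and 8 were lower, 22.2% beside 10.1% of all genes. With TGF-β1, the 7 lower genes became 4 without TGF-β1–stimulated library 1 of either genotype. That is 11.1%, beside 5.11% of all genes lower without the control library and 3.55% without the Smad7-KO library.

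Col14a1, a FACIT that binds to fibrils and limits their diameter, was higher in Smad7-KO cells in both states. Its FPKM was 10.1, 6.03 and 14.3 in unstimulated control libraries, 10.3, 8.39 and 10.9 in control libraries with TGF-β1, 29.8, 26.7 and 25.6 in unstimulated Smad7-KO libraries and 26.8, 28.8 and 22.8 in Smad7-KO libraries with TGF-β1. All 6 Smad7-KO libraries lay above all 6 control libraries. It was 2.69-fold higher without stimulation (log2 fold change 1.43 ± 0.246 SE, edgeR adjusted p = 0.00286) and 2.65-fold higher with TGF-β1 (1.41 ± 0.245, adjusted p = 0.00394). Col12a1, a FACIT of the same subgroup, had log2 fold changes of 0.62 ± 0.358 (adjusted p = 0.199) and 0.29 ± 0.357 (adjusted p = 0.613), and its groups overlapped. The first of these passed without unstimulated control library 3, at 1.17 (adjusted p = 0.00506).

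Col28a1, a short collagen with von Willebrand factor A domains that is known from the sheath of peripheral nerve, had FPKM values of 3.61, 2.43 and 4.79 (unstimulated control), 4.41, 2.88 and 4.16 (control with TGF-β1), 9.22, 8.69 and 10.7 (unstimulated Smad7-KO) and 7.82, 8.90 and 8.01 (Smad7-KO with TGF-β1). Again no Smad7-KO library fell to the control range. The log2 fold changes were 1.40 ± 0.224 without stimulation (edgeR adjusted p = 0.00198) and 1.11 ± 0.222 with TGF-β1 (adjusted p = 0.00793). The summed markers of Schwann cells, the glia of peripheral nerve, were lower, from 5.98 to 11.3 FPKM in unstimulated control to 2.37 to 2.62 in unstimulated Smad7-KO libraries, with 3 of 6 tested. Of these S100b alone was lower in both states, and the other 2 passed the test in neither. The defining gene Sox10 was at or near 0 in all 12 libraries, and the part of these cells in the Col28a1 values was not tested.

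Among the genes that fell, Col16a1 had the smallest standard error. Its FPKM in Smad7-KO libraries was 25.3, 23.9 and 24.7 without and 27.4, 29.4 and 32.4 with TGF-β1, each group wholly below its control group given above. The log2 fold changes were -0.53 ± 0.0889 (edgeR adjusted p = 0.00234) and -0.66 ± 0.0889 (adjusted p = 0.00085). Col8a2 was 4.53-fold lower without stimulation (-2.18 ± 0.354, adjusted p = 0.00208), and with TGF-β1 its value was -0.74 ± 0.253 (adjusted p = 0.0765; 0.04 leaving out unstimulated control library 2 and 0.0447 leaving out TGF-β1–stimulated Smad7-KO library 2). Summed smooth muscle and pericyte markers, cells that make type VIII collagen in vessel walls, were 15 to 23.2 FPKM in unstimulated control, 41.1 to 46.6 in TGF-β1–stimulated control, 7.88 to 8.81 in unstimulated Smad7-KO libraries and 29.5 to 30.3 in Smad7-KO libraries with TGF-β1. Of the 6 tested, 3 were lower without and 2 with TGF-β1, and 0 were higher. Their part in the Col8a2 result was not tested.

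Col2a1, the main fibrillar chain of cartilage, was at low FPKM of 0.746, 0.336 and 0.364 in control libraries without and 0.848, 1.07 and 0.590 with TGF-β1, and 0.0971, 0.0841 and 0.178 in Smad7-KO libraries without and 0.258, 0.0886 and 0.194 with TGF-β1. The Smad7-KO libraries did not overlap with the control libraries of the same state. It was 4-fold lower without stimulation (-2.00 ± 0.467, edgeR adjusted p = 0.0129) and 4.59-fold lower with TGF-β1 (-2.20 ± 0.436, adjusted p = 0.00766), from 10 to 33 counts per Smad7-KO library. The first call was lost without unstimulated control library 1 (adjusted p = 0.0548) or unstimulated Smad7-KO library 1 (0.0543) or 2 (0.0605). Of 6 tested chondrocyte and osteoblast markers, 1 was higher without stimulation and 0 were lower in either state, with summed FPKM of 17.2 to 20.7 in unstimulated control and 17.7 to 19.9 in unstimulated Smad7-KO libraries.

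Col4a4 measured FPKM values of 0.466, 0.424 and 0.734 in unstimulated control libraries, 0.676, 0.402 and 0.495 in control libraries with TGF-β1, 0.142, 0.208 and 0.189 in unstimulated Smad7-KO libraries and 0.170, 0.175 and 0.224 in Smad7-KO libraries with TGF-β1. The highest of the 6 Smad7-KO values was below the lowest of the 6 control values. Col4a4 fell by 1.59 on the log2 scale without stimulation (SE 0.276, edgeR adjusted p = 0.00306) and by 1.47 with TGF-β1 (SE 0.274, adjusted p = 0.00553). Col4a3, which lies head to head with it, had log2 fold changes of -1.12 ± 0.479 (adjusted p = 0.0968) and -1.10 ± 0.478 (adjusted p = 0.153), short of the threshold. Without unstimulated control library 2 both passed, at adjusted p values of 0.0134 and 0.0324, and the second also without library 3 (0.0264). The opposite-strand gene C430014B12Rik overlaps Col4a3, with 20.3% as many reads. The abundant basement membrane pair Col4a1 and Col4a2 had log2 fold changes of 0.26 ± 0.242 and 0.23 ± 0.268 without stimulation (95% intervals -0.27 to 0.79 and -0.35 to 0.82) and of -0.07 ± 0.242 and -0.08 ± 0.268 with TGF-β1. Col4a1 alone passed without unstimulated control library 3, at 0.56 (adjusted p = 0.0396). These chains are made by endothelial cells as well as fibroblasts, and 12 of 15 tested endothelial markers were lower and 1 (Vwf) higher in each of the Smad7-KO comparisons, with Pecam1 at a mean of 14.8 FPKM in unstimulated control and 0.735 in unstimulated Smad7-KO cells. How far endothelial RNA entered the values of Col4a1, Col4a2 or Col4a4 was not tested.

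Col7a1, the anchoring fibril chain below skin epithelium, measured FPKM values of 0.722, 0.766 and 0.584 (unstimulated control), 0.949, 0.919 and 0.967 (control with TGF-β1), 0.487, 0.399 and 0.464 (unstimulated Smad7-KO) and 0.371, 0.553 and 0.515 (Smad7-KO with TGF-β1). The control libraries were higher than the Smad7-KO libraries of the same state throughout. Its log2 fold changes were -0.61 ± 0.177 (edgeR adjusted p = 0.0294) and -0.98 ± 0.174 (adjusted p = 0.00425). The first was lost without unstimulated control library 1 or 2 or without any of the unstimulated Smad7-KO libraries (adjusted p = 0.0605 to 0.106).

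A further 3 fibrillar chains passed the threshold with TGF-β1 and not without it. Col11a1, which helps to start fibrils, was at FPKM of 3.90, 3.18 and 2.91 in control and 1.69, 1.98 and 1.86 in Smad7-KO libraries with TGF-β1 (-0.86 ± 0.21, edgeR adjusted p = 0.0209). Col5a3 was at 4.70, 3.45 and 3.82 and 2.07, 2.05 and 2.55 (-0.84 ± 0.19, adjusted p = 0.014), and Col5a2 had a log2 fold change of -0.63 ± 0.166 (adjusted p = 0.0279). None of the 3 overlapped between genotypes under TGF-β1. Without stimulation their values were -0.47 ± 0.211, -0.44 ± 0.187 and -0.37 ± 0.165, with adjusted p values of 0.112, 0.0933 and 0.11, and each passed there without unstimulated control library 2 (adjusted p = 0.0321, 0.0152 and 0.00529). The Col5a2 call with TGF-β1 was lost without any of the 6 libraries compared (adjusted p = 0.0724 to 0.112). That of Col11a1 was lost without any of them but TGF-β1 control library 3 (0.0603 to 0.0911), and that of Col5a3 without TGF-β1 control library 1 or TGF-β1–stimulated Smad7-KO library 1 or 2 (0.0535 to 0.0693). The fold changes kept their sign throughout.

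By class under TGF-β1, all 10 tested fibrillar chains had a negative fold change, beside 7868 of all 15150 tested genes. Of the 10, 4 were past the threshold, beside 7.23% of all genes lower. Their median was -0.40, and the groups of 7 of them did not overlap. The chains were measured in the same libraries, so their signs are not independent of each other. Without stimulation 8 of the 10 were negative, beside 7735 of all 15150 genes, and 1 was past the threshold, beside 13.7% of all genes lower. The median was -0.24. All 6 type IV chains had a negative sign with TGF-β1, 1 past the threshold, beside 7.23% of all genes lower, with a median of -0.09. Of these, Col4a1, Col4a2, Col4a5 and Col4a6 were at -0.07 to -0.10 with SEs of 0.242 to 0.326, and their groups overlapped. Without stimulation 4 of the 6 were positive, with 1 lower past the threshold and a median of 0.25. Over the whole family the groups of 15 genes lay lower and those of 2 higher without overlap, which is 41.7% and 5.56% of the 36, beside 23% and 21.9% of all tested genes (44.9% in either direction). Without stimulation the groups of 7 lay lower and those of 2 higher, 19.4% and 5.56%, beside 19.2% and 22.1% of all (41.3% in either direction). The 3 tested membrane-anchored chains, Col13a1, Col17a1 and Col23a1, had at most 41 counts in any library, and 0 of them passed edgeR's test in either state, with 1, Col23a1, at an unadjusted p under 0.05 in both. Reads of Col10a1, Col20a1 and Col9a3 are uncertain, since the overlapping genes Nt5dc1, 9230112E08Rik and Tcfl5 carried 5790%, 130% and 48.1% as many.

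**Figure D3:**
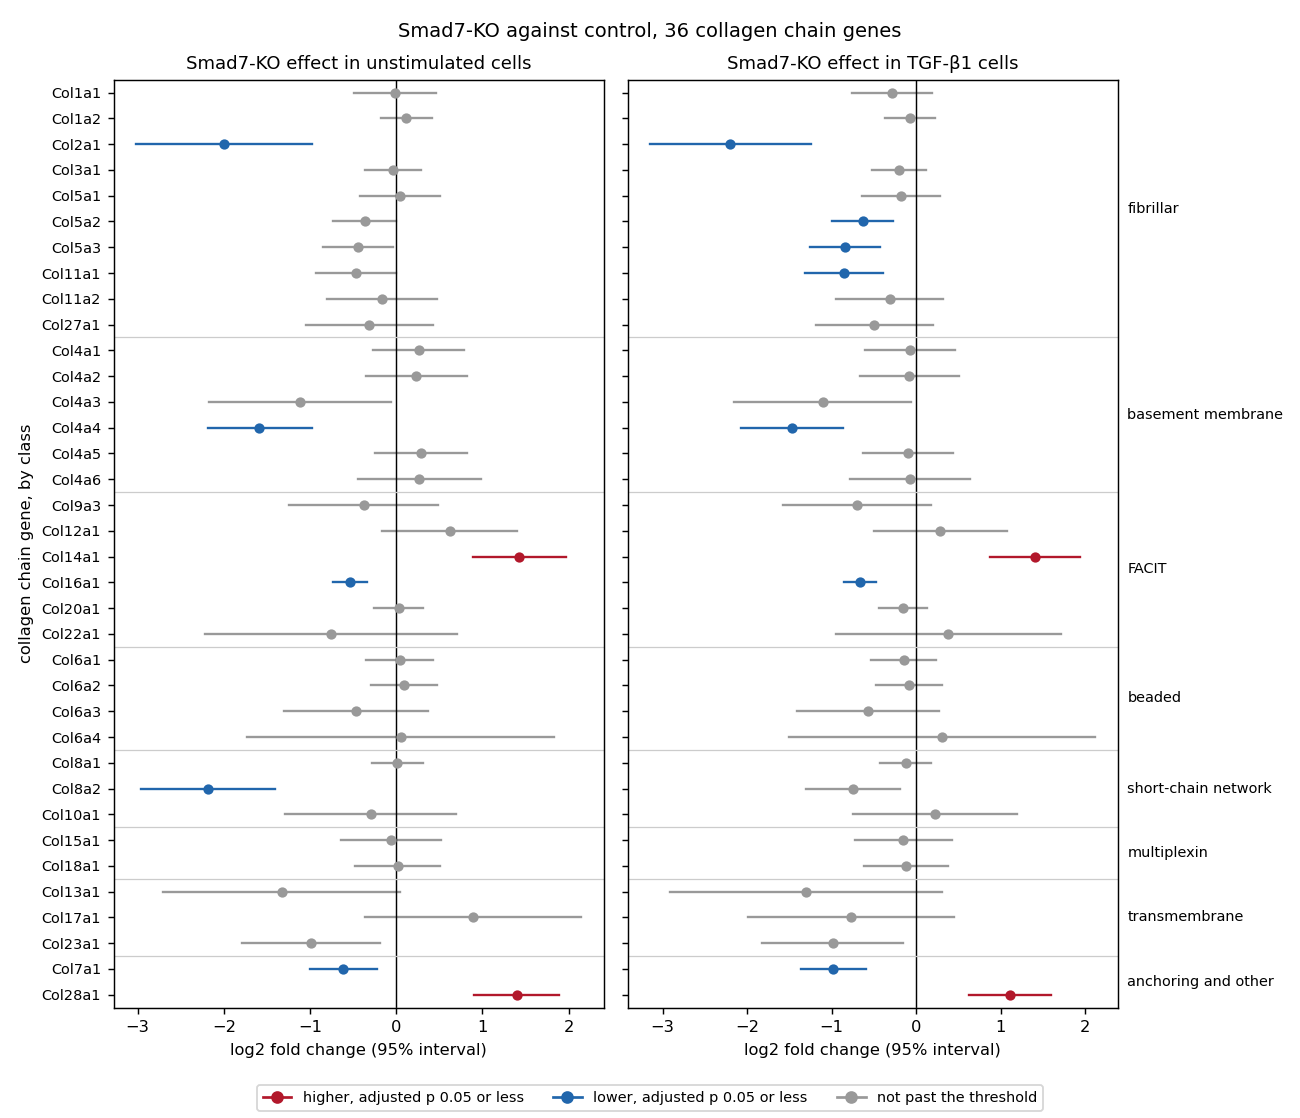
Log2 fold change with its 95% interval of Smad7-KO against control cells without (left) and with TGF-β1 (right) for the 36 tested collagen genes, by class, from edgeR. Red marks the 2 higher genes, Col14a1 and Col28a1, and blue the 5 and 7 lower genes.

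**Figure D4:**
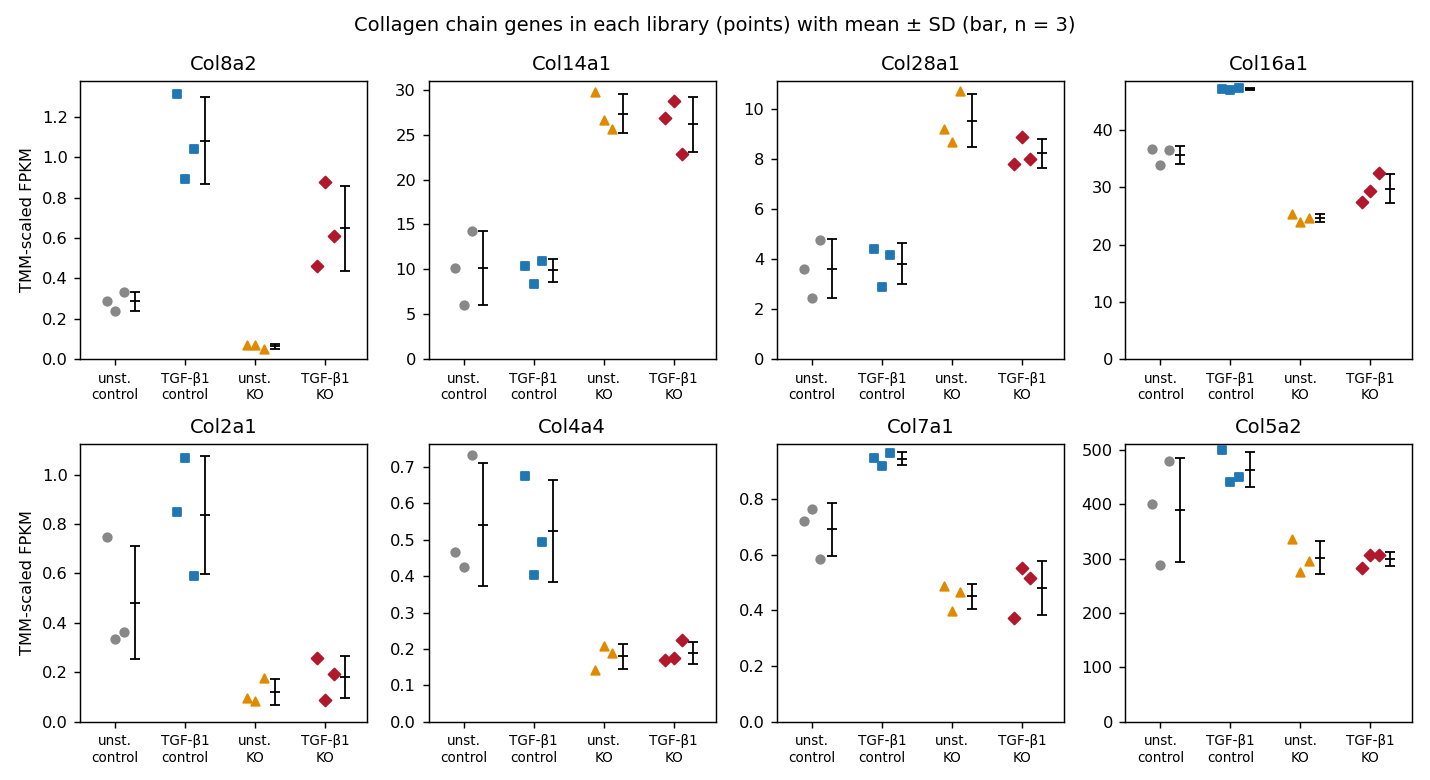
TMM-scaled FPKM of 8 collagen genes in each of the 12 libraries, from 0, with the mean ± SD of the 3 libraries of each group. Col14a1 and Col28a1 were higher in all Smad7-KO libraries, Col16a1, Col2a1, Col4a4 and Col7a1 lower than the control libraries of the same state, and Col8a2 was raised by TGF-β1 in both genotypes.

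Collagen genes are long, and length moved with the Smad7-KO effect over all genes. The listed lengths of the 44 members were 2781 to 11511 bases, with a median of 6083.5, against a median of 3007 over all tested genes. Of the 36 tested members, 33 were among the 5050 longest tested genes (3896 bases or more), 3 among the middle 5050 and 0 among the shortest. Without stimulation, 21.4% of the longest genes rose and 5.62% fell after Smad7 loss, their median being a log2 fold change of 0.29, whereas of the shortest 3.41% rose and 22% fell, with a median of -0.39. With TGF-β1 the longest had 8.48% higher and 4.89% lower and a median of 0.17. The collagen medians of -0.05 and -0.19 were thus below the medians of the longest genes in both comparisons. In each library, the median deviation of the longest genes minus that of the shortest was -1.09 log2 units in unstimulated control library 2 and -0.41 to 0.37 in the other 11.

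When a smooth trend on gene length was removed from each library before the fit, every called change of the Smad7-KO comparisons was kept, 7 of 7 without stimulation and 9 of 9 with TGF-β1, in the same direction. The number of lower genes grew from 5 to 14 and from 7 to 15, and the number of higher genes stayed at 2. In all, 44.4% and 47.2% of the collagens were then called, beside 30.2% (14.2% higher and 16% lower) and 22.5% (10.6% higher and 11.8% lower) of all genes in this fit. The collagen medians became -0.31 and -0.40. Of the fibrillar chains, 6 were then lower without stimulation and 8 with TGF-β1, including Col3a1 (-0.31, edgeR adjusted p = 0.0182, and -0.36, adjusted p = 0.0101) and, with TGF-β1, Col1a1 (-0.46, adjusted p = 0.0131) and Col1a2 (-0.21, adjusted p = 0.0445). Without stimulation 11 collagen genes changed sign, 9 of them past the threshold in neither fit, and the other 2, Col5a1 and Col8a1, went from 0.04 to -0.36 (adjusted p = 0.0177) and from 0.01 to -0.23 (adjusted p = 0.04). Col4a1, Col4a2, Col6a1 and Col6a2 passed in neither fit. Col14a1 remained higher at 1.14 and 1.21 and Col28a1 at 1.26 and 1.03. This fit sets collagens against genes of their own length, and the fit without it against genes of all lengths. Whether the length trend arose in the cells or in the libraries was not tested.

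**Figure D5:**
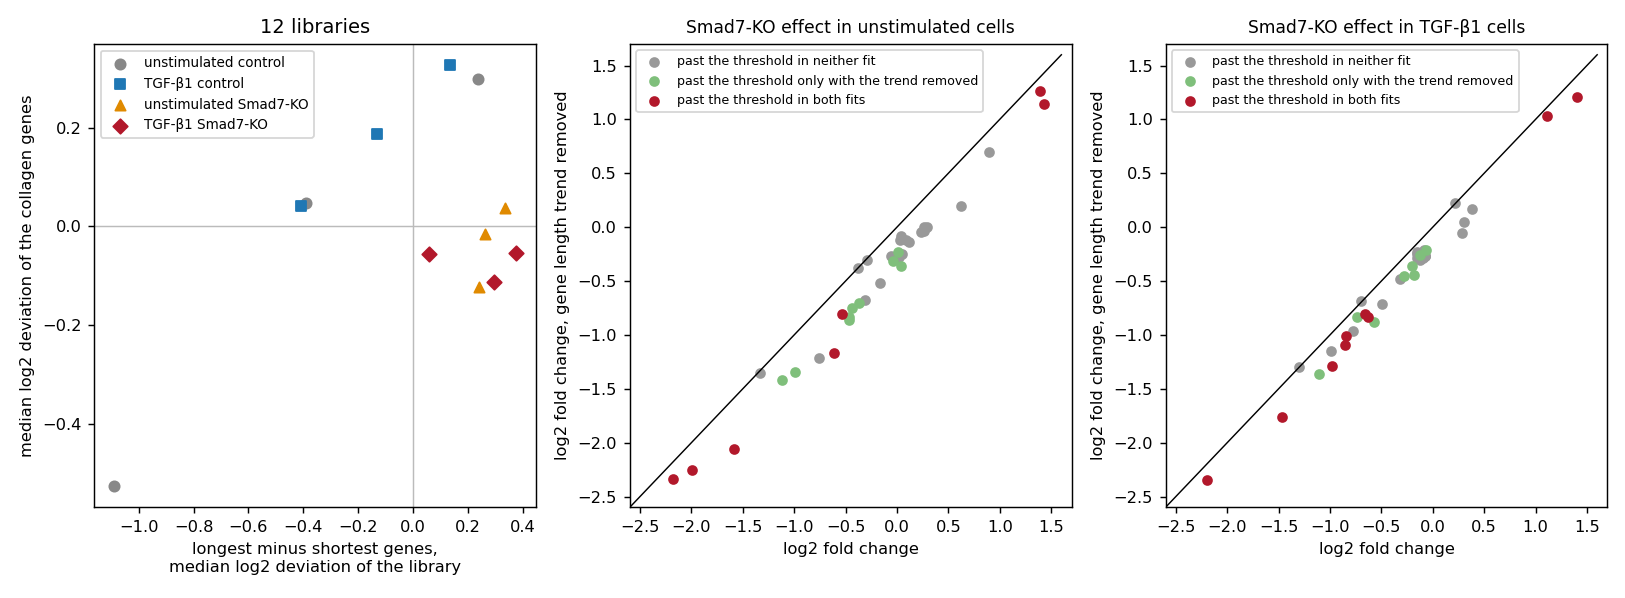
Left, each library's median log2 deviation of the 36 collagen genes against its length trend (longest minus shortest genes, log2); middle and right, log2 fold changes of the collagen genes in the Smad7-KO comparisons without (x) and with (y) the gene length trend removed. Unstimulated control library 2 is at the lower left, at -1.09 and -0.53, and nearly all genes lie below the line of equal values, 35 of 36 without and 33 of 36 with TGF-β1.

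For TGF-β1 in control cells, removing the trend gave 4 higher genes (Col8a2, Col27a1, Col12a1 and Col15a1) and 1 lower (Col3a1, -0.30, edgeR adjusted p = 0.0327), and Col16a1 dropped out (0.28, adjusted p = 0.124), beside 14.6% of all genes (7.62% higher and 6.96% lower). In Smad7-KO cells it gave 3 higher (Col8a2, Col27a1 and Col15a1) and 2 lower (Col3a1, -0.35, adjusted p = 0.0132, and Col5a3, -0.62, adjusted p = 0.00491), beside 16.5% (8.08% higher and 8.47% lower). The collagens called made up 13.9% of the 36 in each.

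The difference between the TGF-β1 effects in Smad7-KO and control cells, which equals the difference between the Smad7-KO effects with and without TGF-β1, was past the threshold for 0 of 36 collagen genes, beside 0.0198% of all genes. In edgeR and in DESeq2 alike, 0 were called. An unadjusted p under 0.05 was found for 392 of all 15150 genes in edgeR, and for 1 collagen gene in each. In edgeR it was Col8a2, whose rise with TGF-β1 was larger in Smad7-KO cells by 1.44 ± 0.438 log2 units (edgeR adjusted p = 0.98). For Col1a1 the difference was -0.27 ± 0.305 (95% interval -0.93 to 0.40), and for Col3a1 -0.16 ± 0.209 (-0.62 to 0.30). The calls made in a single state above are therefore not shown to differ between states.

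To show the sequence next to genes named above, the bases just upstream of the annotated start were taken from RefSeq (GRCm38.p6) for Col8a2, which changed most, Col28a1 and Col7a1, which rose and fell in Smad7-KO cells, and Col3a1, the most abundant chain. Of the 44 genes, 35 had an entry. The lines run 5′ to 3′ on the gene's strand. Capitals mark CAGAC or its reverse complement GTCTG, the short element that receptor-activated Smads bind.
Col8a2: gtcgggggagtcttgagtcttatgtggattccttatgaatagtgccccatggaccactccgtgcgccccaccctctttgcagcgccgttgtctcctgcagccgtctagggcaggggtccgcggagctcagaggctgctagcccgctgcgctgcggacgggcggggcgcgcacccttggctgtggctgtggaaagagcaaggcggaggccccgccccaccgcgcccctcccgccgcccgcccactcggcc
Col28a1: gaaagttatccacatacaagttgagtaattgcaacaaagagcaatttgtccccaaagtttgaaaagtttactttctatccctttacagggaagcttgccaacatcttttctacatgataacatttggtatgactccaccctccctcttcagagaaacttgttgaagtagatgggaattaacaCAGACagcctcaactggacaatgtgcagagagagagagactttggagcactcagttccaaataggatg
Col7a1: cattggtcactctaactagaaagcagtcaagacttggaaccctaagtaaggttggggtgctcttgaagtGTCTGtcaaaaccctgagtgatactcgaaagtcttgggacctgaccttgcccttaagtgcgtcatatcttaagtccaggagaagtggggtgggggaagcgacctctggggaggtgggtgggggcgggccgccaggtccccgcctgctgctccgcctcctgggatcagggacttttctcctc
Col3a1: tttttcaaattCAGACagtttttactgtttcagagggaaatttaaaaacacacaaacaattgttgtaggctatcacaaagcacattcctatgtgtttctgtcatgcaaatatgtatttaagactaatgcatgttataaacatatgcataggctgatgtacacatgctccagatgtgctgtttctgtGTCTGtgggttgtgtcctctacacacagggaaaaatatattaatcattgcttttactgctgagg

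The windows lie at chr4:126286544-126286792 (plus strand, 249 bases), chr6:8192618-8192867 (minus strand, 250 bases), chr9:108953336-108953585 (plus, 250 bases) and chr1:45311288-45311537 (plus, 250 bases), and no annotated exon enters them. The Col8a2 window held 0 matches on either strand, that of Col28a1 1, that of Col7a1 1 and that of Col3a1 2. Of all 32851 RefSeq windows of 250 bases, 42.2% held the element, and of the 38 collagen windows 44.7% did, so it was about as frequent at the collagens as at other genes. The palindrome GTCTAGAC was in 0 collagen windows and in 0.167% of all. G and C made up 69.9% of the Col8a2 window, 40.4% at Col28a1, 56.4% at Col7a1 and 35.2% at Col3a1, beside medians of 59% over the collagen windows and 52.4% over all.

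Collagen chains need many enzymes and chaperones before they form fibers, and 30 of 36 listed genes of this machinery were tested. With TGF-β1, 5 were higher and 0 lower in each genotype, beside 5.04% (control) and 5.33% (Smad7-KO) of all genes higher. At an unadjusted p under 0.05 were 13 and 7 of the 30, beside 3073 and 3064 of all 15150 genes. The largest rises in control cells were those of Loxl3, a cross-linking lysyl oxidase (1.16 ± 0.183 SE, edgeR adjusted p = 0.00169), and Plod1, a lysyl hydroxylase (0.68 ± 0.121, adjusted p = 0.00393). In Smad7-KO cells they were 0.94 ± 0.182 (adjusted p = 0.00591) and 0.68 ± 0.121 (adjusted p = 0.00324). Smad7 loss left 3 higher and 10 lower without stimulation, beside 12.1% higher and 13.7% lower of all genes. With TGF-β1 it left 1 higher and 9 lower, beside 5.72% and 7.23%. The medians were -0.33 and -0.26. Tll1, a procollagen C-proteinase, fell most (-1.45 ± 0.264, adjusted p = 0.00385, and -1.56 ± 0.251, adjusted p = 0.00259), followed by Fkbp10, a collagen chaperone (-0.93 ± 0.14, adjusted p = 0.00136, and -0.85 ± 0.139, adjusted p = 0.00274), and Plod1 was higher in both (0.56 ± 0.121, adjusted p = 0.0087, and 0.57 ± 0.121, adjusted p = 0.0107). Among the 10 tested collagen receptors and uptake genes, Lair1, an inhibitory receptor of leukocytes, was higher with Smad7 loss in both states (0.71 ± 0.13, adjusted p = 0.00416, and 0.56 ± 0.13, adjusted p = 0.017). Of 13 macrophage markers, 6 were higher without stimulation, beside 12.1% of all genes, and 5 with TGF-β1, beside 5.72%, and 0 were lower. Their summed FPKM overlapped without stimulation, at 12000 to 21500 in control and 17300 to 19200 in Smad7-KO libraries. With TGF-β1 it was 12300 to 14800 and 16500 to 19500. Whether macrophage RNA entered the Lair1 values was not tested.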

How the data were processed

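PolyA RNA was sequenced as 100-bp paired reads with a kit that does not mark strand. The authors deposited raw read counts per gene and FPKM values for each library. The submitters' processing notes name CASAVA, TopHat2 2.0, Cufflinks 2.1.1, HTSeq 0.6.1, mm10 and GRCm38.p6, without their roles. The deposited FPKM equalled count over gene length and library total and served only as a check, and for an alternative.

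Counts were tested with edgeR 4.0.16 (R 4.3.3) by the quasi-likelihood test over all 12 libraries, with a coefficient for each of the 4 conditions, TMM factors and edgeR's filter with a minimum count of 10. P-values were adjusted over the 15150 genes left (Benjamini-Hochberg), and a gene was called at an adjusted p of 0.05 or less. Per-library levels are FPKM recomputed from the counts with TMM factors. Standard errors are the fold change over the root of the test statistic, and 95% intervals use the t distribution with the degrees of freedom of that test. The gene length trend was a loess curve (span 0.3) of each library's log2 deviations on log2 length, entered as an offset. Alternatives were DESeq2 1.42.0, edgeR and DESeq2 on only the libraries compared, DESeq2 size factors, no filter, limma 3.58.1 on log2(FPKM + 1) with 1 FPKM in 3 libraries, a replicate block, the length trend removed, and each library left out. The fit without both the length trend and unstimulated control library 2 was chosen after seeing the data. Procedures were tested on simulated data.

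The members and gene lists were chosen with earlier results of these data known. Each member could be named. Values in every library are given for 15 major chains and for up to 3 members of largest change per direction and comparison, and the other called members were given likewise. From the gene lists, up to 2 called genes per direction and comparison were named, besides background genes, and 1 of these is not reported here. Col8a2 in the 2 TGF-β1 comparisons and its upstream sequence were described because it was called. Interactions were tested as the difference of the TGF-β1 effects. Gene coordinates are those of the count file, and upstream sequences are from RefSeq GRCm38.p6. Replicates of a group differed by more than counting error, so none were merged.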

Additional observations from a re-analysis of the deposited data

How the results depend on the processing

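The changes of Col8a2 with TGF-β1 in both genotypes and with Smad7 loss unstimulated, and those of Col4a4, Col14a1, Col16a1 and Col28a1 with Smad7 loss in both states, and of Col2a1 and Col7a1 with Smad7 loss under TGF-β1, stayed past the threshold in all 12 fits without a library and in every other alternative that could be fitted. The alternatives gave 2675 values for 125 results, each a named gene in 1 comparison, and not every tested collagen was among them. The difference between effects was included, which had 0 calls in all fits and so could not switch side. Of the 2675 values, 2327 kept direction and side of the threshold. The sign changed in 175, of which 10 were past the threshold in either fit and 165 in neither. The causes of the moves below were not tested.

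With all libraries, 3, 1, 7 and 9 collagen genes were called for TGF-β1 in control cells, TGF-β1 in Smad7-KO cells, Smad7 loss without TGF-β1 and Smad7 loss with it. For TGF-β1 in control cells, edgeR on only those libraries called 1 (34 genes tested), 2.94% beside 2.69% of all genes. Removing the length trend gave 5, 13.9% beside 14.6%. For TGF-β1 in Smad7-KO cells, DESeq2 called 5 over all libraries, 13.9% beside 11.8% of all genes. Over only those compared, DESeq2 called 11 (30.6% beside 21.8%) and edgeR 10 (29.4% beside 26.3%). Limma called 0 (with 24 of the genes tested), beside 10.4%. The fit with the length trend removed called 5 (13.9% beside 16.5%). For Smad7 loss without stimulation, limma called 3 of the 24 collagen genes it tested, beside 28.5% of all genes. The fit with the length trend removed called 16, 44.4% beside 30.2%. With TGF-β1, DESeq2 on only those libraries called 14, 38.9% beside 32.1% of all genes. The fit with the length trend removed called 17, 47.2% beside 22.5%. Leaving out each library gave 1 to 9, 1 to 6, 5 to 13 and 6 to 12. The highest counts were 25%, 16.7%, 36.1% and 33.3% of the collagens, beside 22.3%, 16.3%, 51.5% and 28.8% of all genes. The lowest were 2.78%, 2.78%, 13.9% and 16.7%, beside 5.31%, 6.34% to 9.19%, 9.9% to 12.9% and 6.07% to 9.35%. The difference between effects had 0 calls in all fits. The median for TGF-β1 in control cells was -0.05 without unstimulated control library 2 and 0.39 without library 3, and that for Smad7 loss without stimulation -0.23 and 0.14, and 0.09 in limma.

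Of 18 same-numbered pairs, 1 had a correlation of deviations over 0.1 (range -0.357 to 0.524). It was unstimulated control library 2 with TGF-β1 control library 2, the libraries with the most negative length trends (-1.09 and -0.41). Deviations from means of 3 libraries cannot show whether libraries shared a culture or an animal, so pairing was not settled. With the replicate number as a block, 2, 2, 7, 9 and 0 genes were called, and with the block and the length trend removed 4, 5, 14, 16 and 0. The block's first 4 counts were 5.56%, 5.56%, 19.4% and 25%, beside 7.31%, 8.73%, 21.3% and 10.7% of all genes. With the trend removed as well they were 11.1%, 13.9%, 38.9% and 44.4%, beside 13.1%, 15.2%, 28% and 20.7%.

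With the length trend removed and without unstimulated control library 2, a choice made after seeing the data, 9, 11, 22 and 25 genes were called, 20 of the 22 and 23 of the 25 lower, beside 18.2%, 23.9%, 28.3% and 35.5% of all genes. Col6a1 then turned to -0.20 for TGF-β1 in control cells. For Smad7 loss without stimulation, Col5a1 turned to -0.36 with the trend removed, -0.36 with the block as well and -0.45 without that library, Col8a1 to -0.23 with the trend removed, and without that library Col4a1 to -0.18, Col4a2 to -0.24, Col6a1 to -0.24, Col6a2 to -0.24 and Col18a1 to -0.41.

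Depth limited the low genes: the 8 untested genes had at most 10 counts in a library. Macrophage and endothelial RNA, the length trend and unstimulated control library 2 limit what the Smad7-KO differences say about fibroblasts alone.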
